A study of Mus musculus with 4 samples.

Results

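The 168 annotated gene segments of Igk, the locus of the immunoglobulin kappa light chain, were examined in ATAC-seq peak lists of mouse thymocytes. They were taken by position as every Igkv, Igkj and Igkc entry of a RefSeq gene table within chr6:67555636-70726754 of mm10, out of 686 antigen receptor segments in that table. They comprise 162 V segments, of which 60 are annotated as pseudogenes, 5 J segments and 1 constant region. ATAC-seq marks open chromatin, because a transposase inserts sequencing adapters only where DNA is exposed. Each of the 4 lists belongs to 1 thymus sample of the C57BL/6J strain, wild type, from animals 5 to 7 weeks old. The DN 1 and DN 2 samples were double-negative cells, CD4-CD8- and labelled CD25+CD44-/+. The DP 1 and DP 2 samples were CD4+CD8+ double-positive cells, the later stage. None of the 4 samples carried a deletion or was treated. The labels do not say whether samples of a stage came from separate animals, so p-values measure only the spread between these samples, which may be technical. With 2 lists per stage, the smallest p that an exact two-sided permutation test allows is 0.333.

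Kappa light chain genes are assembled in B cell precursors by joining 1 V segment to 1 J segment, with the same RAG recombinase that joins T cell receptor genes in thymocytes. The V segments are spread over megabases in both orientations, and the J segments lie in a short cluster just before Igkc. In B lineage cells the locus is governed by an intronic enhancer between the J segments and Igkc, by enhancers beyond Igkc, and by elements bound by the insulator protein CTCF, named Cer and Sis, between the last V segment and the J segments. T lineage cells do not normally assemble kappa genes.

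Kappa segments were almost free of peaks in thymocytes of either stage. A peak overlapped a segment or lay within 500 bp of it for 4 segments in DN 1, 4 in DN 2, 2 in DP 1 and 4 in DP 2. In all, 12 of 168 segments (7.14%) had such a peak in any list, against 34.6% of the 518 other receptor segments of the gene table. No segment had one in all 4 lists (1.35% of other receptor segments). None had one in a list of each stage, where 7 had one in a DN list and 5 in a DP list. The share of other receptor segments with a peak in each stage is not given, so this count cannot be judged against it. The only segments held by 2 lists were Igkv9-123, in both DP lists and neither DN list, and Igkv13-76, in both DN lists and neither DP list. Among the other receptor segments 11.4% had the first pattern and 2.12% the second. The other 10 segments were each held by a single list, a pattern of 14.3% of other receptor segments. The numbers of segments per list overlapped between the stages (4 ± 0 in DN and 3 ± 1.41 in DP, SD, n = 2 each, exact permutation p = 1).

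**Figure D1:**
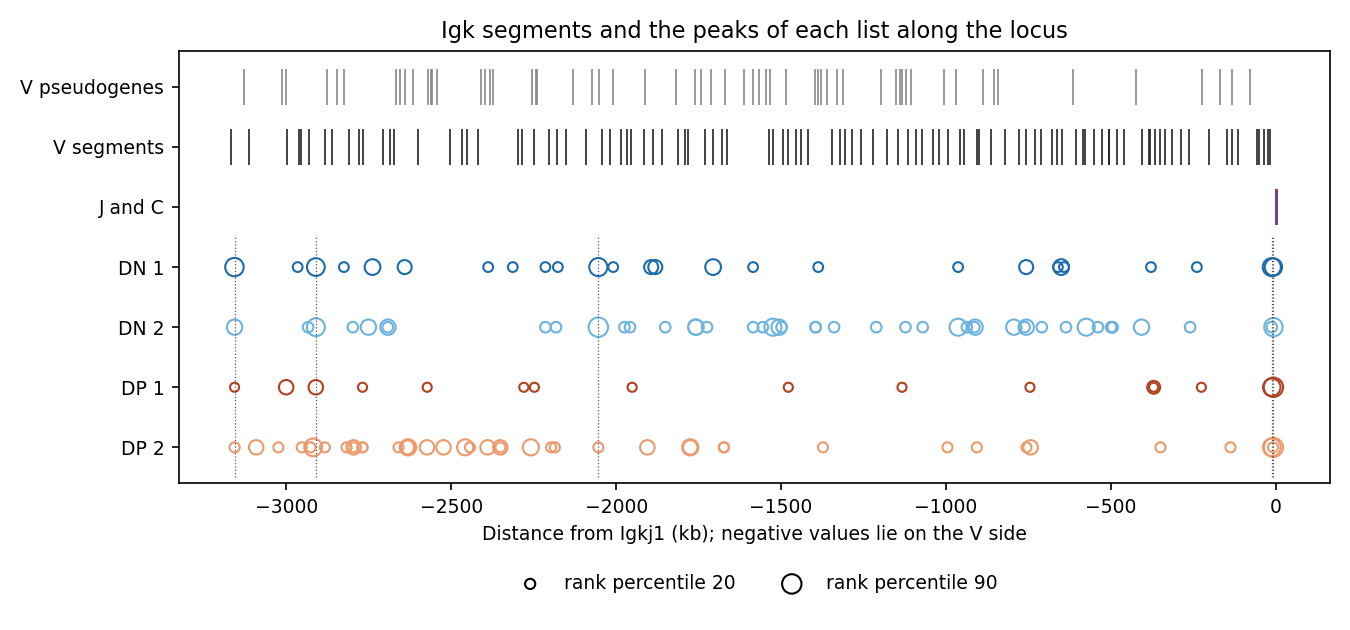
Position of the Igk segments (ticks, upper 3 rows) and of the Igk peaks of each list (circles, lower 4 rows) by distance from Igkj1 in kb, with circle area rising with the peak's rank percentile within its list. Dotted lines mark the 5 regions held by 3 or 4 lists, and the pair between the V segments and Igkj1 lies together at the right edge, beside J segments that carry no peak.

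The J segments and Igkc carried no peak. Igkj1 (chr6:70722562-70722599) to the end of Igkc (chr6:70726435-70726754) spans 4193 bp, and 0 peaks had their midpoint there in any list. This stretch includes the 2511 bp between Igkj5 and Igkc, where the intronic enhancer is known to lie. The nearest peak on the V side ended 7862 bp before Igkj1 in DN 1 and in DN 2, 7762 bp before it in DP 1 and 7812 bp before it in DP 2. On the far side the next peak began 41897 bp past Igkc in DN 1, 65097 bp past it in DN 2, 35797 bp in DP 1 and 35747 bp in DP 2. J segments that thymocytes do join carried peaks by the same measure. Tcrb J segments had a peak for 8, 12, 5 and 6 of 14 segments in DN 1, DN 2, DP 1 and DP 2, and Tcra J segments for 0, 0, 13 and 9 of 60. Igh J segments, joined in B cells, had one for 0, 0, 1 and 0 of 4. The lists hold no read counts, so a closed site and an open one that was sequenced too thinly cannot be told apart.

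The gap of 18384 bp between Igkv3-1, the V segment nearest to the J cluster (chr6:70703578-70704177), and Igkj1 held peaks in all 4 lists. It contained 2 peaks in each of DN 1, DN 2 and DP 1 and 3 in DP 2. These formed 2 of the 3 Igk regions that all 4 lists held, a region being the union of peaks that share at least 1 bp across lists. The region nearer to Igkj1 (chr6:70714151-70714800, 7762 bp from Igkj1) lay inside the lncRNA gene Gm46961. Peaks were ranked within each list by the caller's p-value, where percentile 100 is the best and ties share their mean rank. By that scale this region stood at percentile 70.2 in DN 1, 79.9 in DN 2, 89.3 in DP 1 and 86.8 in DP 2. Both DP values were above both DN values, and in DP 1 and DP 2 it was the best-ranked peak of the whole kappa locus.

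The other shared region of the gap (chr6:70709201-70709800, 5024 bp from Igkv3-1) stood at percentile 77.5 in DN 1, 22.1 in DN 2, 71.6 in DP 1 and 74.2 in DP 2. The DN 2 value is that of the ties at the largest p-value of its list. When peaks at the largest p-value of each list were left out, this region was held by 3 lists, while the region nearer to Igkj1 was still held by all 4. The third peak of DP 2 (chr6:70713051-70713550) ranked at percentile 19.2 in that list and was in no other. Cer and Sis are known to lie in this gap, and whether these regions coincide with them was not tested.

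**Figure D2:**
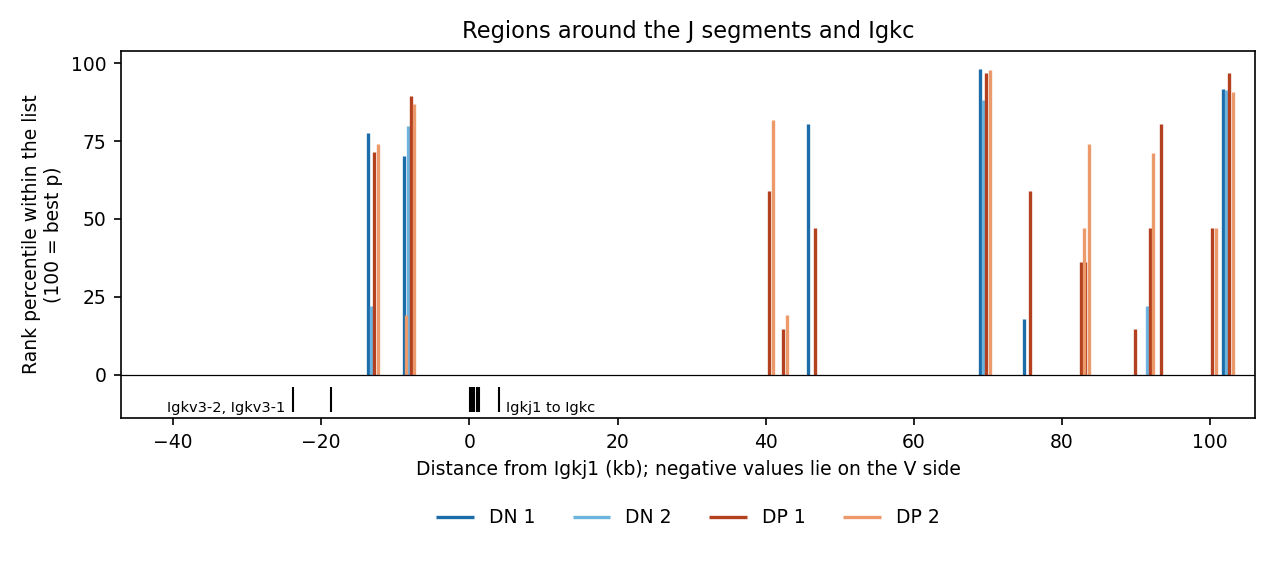
Rank percentile within its list (100 is the best p-value) of every region near the J segments and Igkc, by distance from Igkj1 in kb, with 1 stick per list set slightly apart, and the segments as ticks below 0. All 4 lists have sticks at the shared pair before Igkj1, none has a stick over the J segments and Igkc, and the next regions lie at least 35747 bp past Igkc.

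Past Igkc the first 50 kb held 1 peak in DN 1, 0 in DN 2 and 3 in each DP list. The DP lists shared chr6:70762501-70763100, at percentile 59.0 in DP 1 and 81.7 in DP 2, and chr6:70764501-70764950, at percentile 14.6 and 19.2. The first region past Igkc that all 4 lists held (chr6:70791701-70792550) overlapped Rpia, a gene of the pentose phosphate pathway, at percentile 98.2, 88.1, 96.8 and 97.8 in DN 1, DN 2, DP 1 and DP 2. No kappa peak reached percentile 90 in any list. The numbers of peaks in the first 50 kb past Igkc did not overlap between the stages (0.5 ± 0.71 in DN and 3 ± 0 in DP, n = 2 each), at an exact permutation p of 0.333. The whole lists did not overlap in length either (38808 and 33131 peaks in DN, 39718 and 70385 in DP). In DP 2 these peaks all lay in the pair of regions shared with DP 1, so some fell in the same region.

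Of the 3 regions that all lists held, the remaining one lay at the opposite end of the locus, at chr6:67565601-67566600. It is a chain of peaks in which the DN 1 peak (ending at 67566200) and the DP 1 peak (starting at 67566201) do not themselves overlap. The DN 1 peak overlapped 4930515G16Rik, a transcribed pseudogene, and the region lay 9385 bp from Igkv2-137, the outermost V segment. Its percentile was 80.5 in DN 1, where it was the best-ranked kappa peak, and 53.7 in DN 2. In DP 1 and DP 2 it stood at 14.6 and 19.2, the percentiles of the ties at the largest p-value, so both DN lists ranked it above both DP lists.

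The 4 lists together formed 101 regions in Igk. Of these, 3 were held by all lists (2.97%), against 7.39% of all 107621 regions of the genome. Both DN lists and neither DP list held 4 (3.96%, against 2.51%), and both DP lists and neither DN list held 1 (0.990%, against 7.44%). A single list held 91 (90.1%, against 71.8%). Single-list regions made up 65.4% of the kappa regions in DN 1, 78.6% in DN 2, 66.7% in DP 1 and 86.1% in DP 2, where over all regions the same shares were 42.0, 51.7, 31.8 and 58.1%. The kappa share was the higher one in each of the 4 lists.

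The 4 regions of both DN lists lay scattered through the V part. One at chr6:69137501-69137900 overlapped the V pseudogene Igkv13-76 by its DN 2 peak, while its DN 1 peak ended 16 bp from that segment. It ranked at percentile 17.7 in DN 1 and 22.1 in DN 2, the ties at the largest p-value in each. Another, chr6:69965001-69965500, lay 1140 bp from Igkv5-37 and ranked at 43.7 and 53.7. The one at chr6:69758601-69759050, 5473 bp from Igkv12-46, ranked at 17.7 and 67.9. The last, chr6:68508001-68508400, was 10612 bp from Igkv14-100 and ranked at 17.7 and 22.1. Only Igkv13-76 among these was a segment itself, and only the region near Igkv5-37 was ranked above the ties in both lists. In the best-ranked 50% of each list none of the 4 was held by both DN lists.

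The 1 region of both DP lists (chr6:67953751-67954250) overlapped an edge of Igkv9-123, a V segment not annotated as a pseudogene, at chr6:67954230-67954690. It ranked at percentile 14.6 in DP 1 and 19.2 in DP 2, again the ties at the largest p-value of each list. Limiting each list to its best-ranked 50% removed both this region and Igkv13-76. Without DP 1 the number of such regions was 32 and without DP 2 it was 11, since a single list then stood for the stage. Without DN 1 the regions of the DN kind numbered 37, and without DN 2 they numbered 21.

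A pair of V-part regions were held by 3 lists (1.98% of the kappa regions, with no share over all regions given). The one at chr6:68668351-68668900, 1852 bp from Igkv2-95-1, ranked at percentile 77.5 in DN 1, 89.7 in DN 2 and 19.2 in DP 2, and was in no DP 1 peak. In DN 2 it was the best-ranked kappa peak. The one at chr6:67812351-67812900, 20840 bp from Igkv14-130, ranked at 74.1 in DN 1, 75.5 in DN 2 and 46.9 in DP 1, and was in no DP 2 peak. Both ranked higher in each DN list than in the DP list that held them. In the best-ranked 50% of each list both, and the outermost region at chr6:67565601-67566600, were held by DN 1 and DN 2 alone. Because of ties, that setting kept 48.0, 55.8, 49.1 and 44.5% of the peaks of DN 1, DN 2, DP 1 and DP 2. Without the peaks at the largest p-value, the region near Igkv14-130 was again held by DN 1, DN 2 and DP 1. Outside these shared regions, the best-ranked kappa peak of DP 1 (chr6:67722401-67722850) stood at percentile 46.9, 1176 bp from Igkv17-134.

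By V family, the number before the first hyphen of a symbol, peaks near segments were thinly spread. Of 12 families with at least 5 segments, 8 had a segment with a peak in any list and 4 had none. Family 4, the largest, had 2 of 33 segments, Igkv4-80 in DN 1 and Igkv4-73 in DN 2. Family 13, in which 17 of 19 members are pseudogenes, had Igkv13-76 and Igkv13-55-1, the latter in DN 2. Families 8, 12, 2, 6 and 5 had 1 each: Igkv8-21 in DN 2, Igkv12-66 and Igkv2-93-1 in DN 1, and Igkv6-17 and Igkv5-48 in DP 2.

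Family 9 had 2 of 6, Igkv9-123 in both DP lists and Igkv9-129 (chr6:67839793-67840266) in DP 2. Families 1 and 3, with 13 segments each, family 14 with 8 and family 15 with 5 had none. The 15 segments of the 8 smaller families included 1 with a peak, Igkv20-101-2 in DP 1. Members of 1 family resemble each other in sequence, and how reads matching several copies were treated is not given in the sources used here, so the copy that a peak is placed on is uncertain.

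Of the 102 V segments not annotated as pseudogenes, 1 had a peak in DN 1, 2 in DN 2, 2 in DP 1 and 4 in DP 2, so the stages overlapped (exact permutation p = 0.667). Of the 60 V pseudogenes, 3 had one in DN 1, 2 in DN 2 and 0 in each DP list (2.5 ± 0.71 against 0 ± 0, n = 2 each, exact permutation p = 0.333). These were 4 distinct pseudogenes (6.67%), each with a peak in a DN list and none in a DP list, a pattern of 1.08% of the 93 V pseudogenes of other receptor loci. The latter had a peak for 2, 0, 12 and 14 members in DN 1, DN 2, DP 1 and DP 2. All DN peaks at kappa pseudogenes were ties at the largest p-value, and none remained when those were left out.

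Most peaks at segments were the weakest of their list. Only Igkv4-73 (percentile 67.9 in DN 2), Igkv4-80 (56.7 in DN 1) and Igkv8-21 (53.7 in DN 2) had a peak better than the largest p-value of the list. The authors' p-values of these peaks, from the peak caller, were 0.000155, 0.000167 and 0.000269. The other 9 segments were held only by tied peaks, at percentile 17.7 in DN 1, 22.1 in DN 2, 14.6 in DP 1 or 19.2 in DP 2. With the best-ranked 50% of each list the 12 segments with a peak became 3, with each list limited to the length of the shortest 5, and with a window of 2000 bp in place of 500 bp 30.

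**Figure D3:**
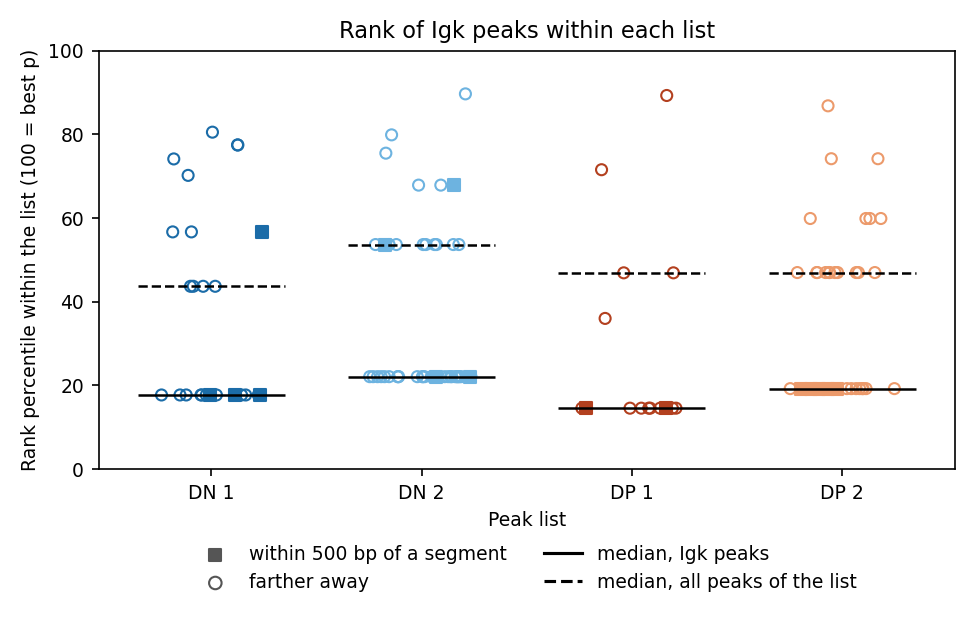
Rank percentile within its list (100 is the best p-value) of every Igk peak, by list, with filled squares for peaks within 500 bp of a segment, open circles for the rest, and the median of Igk peaks (solid) and of all peaks (dashed). The Igk median lies on the lowest row of ties in all 4 lists, and every square above that row is in a DN list.

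Kappa peaks as a whole were low in rank. The median percentile of Igk peaks was 17.7 in DN 1, 22.1 in DN 2, 14.6 in DP 1 and 19.2 in DP 2, where the median of all peaks was 43.7, 53.7, 46.9 and 47.0. The largest p-value of the list was held by 14 of 26 Igk peaks in DN 1, 29 of 45 in DN 2, 11 of 16 in DP 1 and 24 of 42 in DP 2. As shares these were 53.8, 64.4, 68.8 and 57.1%, against 35.4, 44.2, 29.1 and 38.5% of all peaks. In each list the kappa share was the higher. Their median width was 350 bp, 300 bp in DN 2, against 350 to 450 bp for all peaks. Igk peaks in the best-ranked 25% of the list numbered 3 in each DN list and 1 in each DP list. Just under that limit lay 2 peaks of DP 2 at percentile 74.2 and 1 of DN 1 at 74.1, so these counts depend on where it is set.

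The density of peaks in the 3.17 Mb of the locus was 8.20 per Mb in DN 1, 14.2 in DN 2, 5.05 in DP 1 and 13.2 in DP 2. That is 0.560, 1.14, 0.336 and 0.499 times the density of the same list over all chromosomes. The lists differed in length, from 33131 peaks in DN 2 to 70385 in DP 2, and DN 2 was the shortest list but had the most kappa peaks. Per 10000 peaks of a list the stages did not overlap (10.1 ± 4.87 in DN and 5.00 ± 1.37 in DP, n = 2 each, exact permutation p = 0.333), while the counts themselves did (exact permutation p = 0.667). The difference per 10000 peaks, 5.14, was 1.70 without DN 2. The difference of 6.5 peaks, DN minus DP, became -3 without DN 2, -6.5 without DP 1 and 19.5 without DP 2.

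The share of kappa peaks near a segment was close to what the spacing of the segments gives. Peaks within 500 bp of a segment numbered 4 of 26 in DN 1, 4 of 45 in DN 2, 2 of 16 in DP 1 and 5 of 42 in DP 2, or 15.4, 8.89, 12.5 and 11.9%. A peak of 350 bp set at each step of 50 bp along the locus would be that close to a segment at 9.61% of positions. Overlapping peaks of 1 list were counted separately, as for DP 2 at Igkv9-123. The kappa peaks of DN 1, DN 2, DP 1 and DP 2 lay in 26, 42, 15 and 36 regions. The median distance to the nearest segment was 4003 bp in DN 1, 5174 bp in DN 2, 2988 bp in DP 1 and 5912 bp in DP 2, and these overlapped between the stages. Within 2000 bp the shares were 38.5, 22.2, 50 and 19.05%. At that distance 30 of 168 segments (17.9%) had a peak in any list, against 46.1% of other receptor segments. By family, these were 3 of 8 segments in family 14, 2 of 6 in each of families 5 and 9, 3 of 10 in family 2 and 6 of 33 in family 4.

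Along the locus, in stretches chosen after the counts were seen, DP lists held a larger share of kappa peaks far from the J segments. DN lists held a larger share in the middle. The interval was divided into 6 bins of equal width, of which bin 1 is farthest from the J segments and bin 6 holds them. Bins 1 and 2 (Igkv2-137 to Igkv15-97) held 10 of 26 peaks in DN 1, 9 of 45 in DN 2, 7 of 16 in DP 1 and 26 of 42 in DP 2. These are 38.5, 20, 43.8 and 61.9%. Bins 3 to 5 (Igkv10-96 to Igkv8-26) held 12, 29, 4 and 11 peaks, or 46.2, 64.4, 25 and 26.2%. By width, the first stretch is 2 of 6 bins and the second 3 of 6. DN 1 lay near an even spread in both, and in the first it was close to DP 1 (38.5 and 43.8%). The shares of DN and DP lists do not overlap in either stretch (29.2 ± 13.1 against 52.8 ± 12.8% and 55.3 ± 12.9 against 25.6 ± 0.84%, n = 2 each, exact permutation p = 0.333 for both). These stretches were joined from the bins after their counts were seen. In the best-ranked 50% of each list the first difference changed sign, from -23.6 to 2.68 percentage points, DN minus DP, and the second was 42.9. Without DN 2 the first was -14.4 and without DP 2 it was -14.5.

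**Figure D4:**
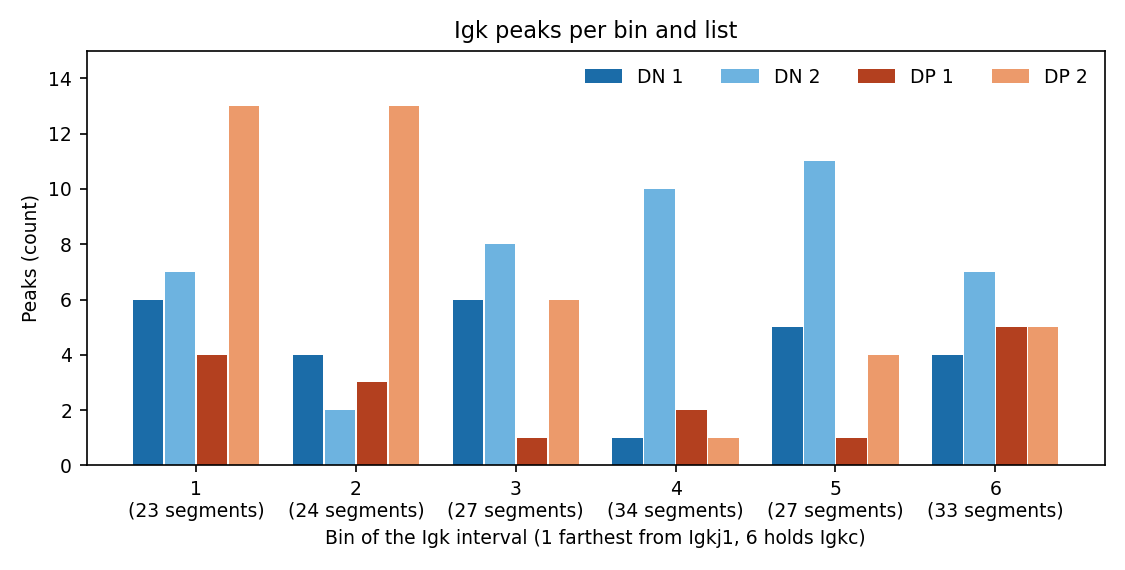
Igk peaks (count, bars from 0) in each of 6 bins of equal width along the locus, by list, with the number of segments per bin below each bin number. DP 2 has 13 peaks in each of bins 1 and 2, while DN 2 has 10 and 11 in bins 4 and 5, where DP 2 has 1 and 4.

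The peaks at the 12 segments are part of the peaks binned above, so their places are no separate observation. Bins 1 to 6 hold 23, 24, 27, 34, 27 and 33 segments. In bins 1 and 2, the 3 segments with a peak (Igkv9-129, Igkv9-123 and Igkv20-101-2) were held by DP lists alone. In bins 3 and 4, all 6 (Igkv2-93-1, Igkv4-80, Igkv13-76, Igkv4-73, Igkv12-66 and Igkv13-55-1) were held by DN lists alone. That depends on the 500 bp window, since a DP 1 peak lay 513 bp from Igkv4-71 in bin 4. Within 2000 bp, family 4, which lies in bins 3 to 5, had 1 segment with a peak in DN 1, 2 in DN 2, 3 in DP 1 and 0 in DP 2. In bin 5, part of the middle stretch above, the 1 segment, Igkv5-48, was in DP 2. In bin 6 Igkv8-21 was in DN 2 and Igkv6-17 in DP 2. With 1 list behind all but 2 of them, these placements are a description of the 4 lists.

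Other receptor loci in the same lists showed how far apart V segments can stand. For Igk V segments the share with a peak was 2.47% in DN 1, DN 2 and DP 2 and 1.23% in DP 1. For Igh V segments, which like kappa are joined in B cells, it was 6.01, 2.73, 28.4 and 33.9% in DN 1, DN 2, DP 1 and DP 2. For Tcra V segments, joined in DP cells, it was 3.08, 0.769, 17.7 and 25.4%. For Tcrb V segments, joined in DN cells, it was 40, 34.3, 14.3 and 25.7%, on the same chromosome as Igk. The 7 Tcrg V segments had 71.4, 14.3, 28.6 and 14.3%.

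The share for Igh minus that for Igk was 1.90 ± 2.32 percentage points in DN and 29.3 ± 2.99 in DP lists (n = 2 each), with no overlap and the smallest p the exact permutation test allows (0.333). Tcra minus Igk was -0.55 ± 1.63 in DN and 19.7 ± 4.57 in DP lists, at the same exact permutation p. Tcrb minus Igk went the other way, 34.7 ± 4.04 in DN and 18.1 ± 7.21 in DP lists, again without overlap (exact permutation p = 0.333). Tcrg minus Igk was 40.4 ± 40.4 and 19.6 ± 11.0, with overlap (exact permutation p = 1). In the DN lists, then, kappa V segments were near those of Igh and Tcra, and in the DP lists their share was below that of each of the 4 loci named. The 3 V segments of Igl, the other light chain locus, had no peak in any list. They are too few to tell their share from that of kappa.

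**Figure D5:**
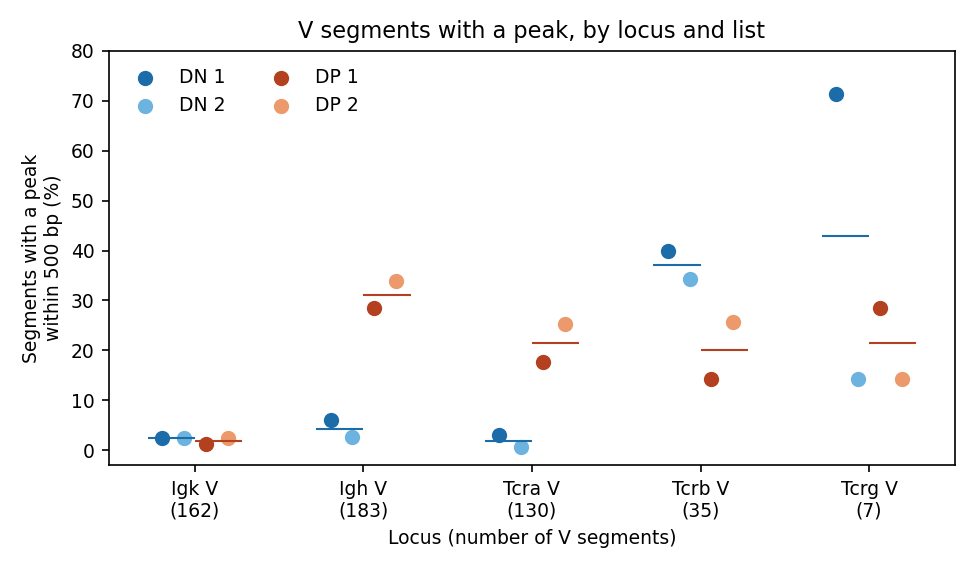
Percent of V segments with a peak within 500 bp, by locus (number of V segments in brackets) and list, with short lines at the mean of the 2 lists of a stage. Igk stays between 1.23 and 2.47% in all lists, while the DP values of Igh and Tcra rise above their DN values.

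Markers of cell types bear on what the lists can show. Counting peaks up to 1000 bp from either gene end, the lists marked 37.9, 26.7, 47.4 and 50.6% of protein-coding genes in DN 1, DN 2, DP 1 and DP 2. Among DP genes, Cd4, Cd8a and Cd8b1 had such a peak in both DP lists and in neither DN list, and Cd1d1 had none. Of 6 general T cell genes, DP lists held all 6, DN 1 held Bcl11b alone, and DN 2 held Bcl11b and Cd3e. Of 4 genes of CD25+ DN cells (Il2ra, Ptcra, Dtx1 and Hes1), DN 1 held 3, DN 2 held 0, DP 1 held 1 and DP 2 held 4, so the DN 2 list had no peak at the markers of its label and DP 2 had all of them. Of 12 B cell genes, the lists held 2, 2, 2 and 4, and 8, Pax5 and Ms4a1 among them, were in no list. Ebf1 and Cr2 were in all lists, and Cd79a and Cd79b in DP 2 alone. Of 6 myeloid genes the lists held 1, 1, 3 and 1, of 4 dendritic cell genes 0, 2, 2 and 1, of 3 NK cell genes 1, 0, 1 and 1, of 3 erythroid genes 1 each, and of 3 stromal genes none. The part of other cells in the few kappa peaks was not tested, and in bulk samples fewer cells with an open site and less opening per cell cannot be told apart.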

How the data were processed

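ATAC-seq peak lists of 4 thymocyte samples, 2 DN and 2 DP, were used. The submitters' processing notes name mm10, Bowtie2 and Picard, without versions or roles. PeakDEck is known only from the names of the lists. Not given in the sources used here: its settings, read filters, duplicate handling and any shift for the transposase. The deposited p-value of each peak is the authors' own and was used only to rank peaks within a list. Read depth is unknown, so no counting intervals were computed. Between any pair of lists, 1.34 to 6.26% of peaks (as a share of the shorter one) coincided exactly, so no list was a copy.

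The segments are those of RefSeq on GRCm38.p6, the same build as mm10, in a table without strand. A peak belonged to Igk by its midpoint, and to a segment within 500 bp. Peak counts include peaks of a list that overlap each other. Coordinates are counted from 1. Peaks sharing at least 1 bp were merged into regions. Samples were grouped by their labels and compared by exact two-sided permutation tests. Counts of segments or regions by their pattern across lists were not tested and stand beside the same share over all regions or other receptor segments. Family and bin counts of segments are given without such a share.

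Text names segments with a peak in 3 lists or in both lists of 1 stage alone, all J segments and Igkc, and those nearest to the 3 best-ranked peaks of each list. The other segments with a peak were named after their values were seen. Members and lists were chosen with earlier results of these data known. The planned motif search was not run, because promoter sequences of the segments were not used here. Same-numbered samples are not said to be paired, and their deviations correlated at 0.0207 over all regions. The joined bins, the pseudogene counts, the 100 kb flanks and the setting without peaks at the largest p-value were added after the data were seen. Other settings tried were the best-ranked 50% of each list, lists limited to the shortest, other windows and merging rules, and each list left out. Because of ties, the best-ranked 50% held 44.5 to 55.8% of a list. Merging and matching were tested on simulated data. Computations ran in Python 3.11.15 with pandas 2.3.3 and numpy 2.4.6, and plots were drawn with matplotlib 3.10.9.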

Additional observations from a re-analysis of the deposited data

How the results depend on the processing

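Depth is unknown, and limiting lists to the shortest cuts through ties, which were broken by order in the list and so by chromosome. Segments of both DN lists alone, 1 in the report, numbered 0 in the best-ranked 50% of each list, with lists limited to the shortest, with overlap alone and without the peaks at the largest p-value, and 2 within 2000 bp. Segments of both DP lists alone, also 1, numbered 0 in the best-ranked 50%, with lists limited to the shortest and without the peaks at the largest p-value. Leaving out each list in turn gave 1 to 4 for either kind. Regions of both DP lists alone, 1 in the report, numbered 0 under the same 3 settings, 2 with merging within 250 bp, and 1 to 32 with a list left out. Regions of both DN lists alone, 4 in the report, numbered 5 to 37 with a list left out, and 3 in the best-ranked 50%, none of them among those 4. Segments in any list, 12 in the report, numbered 9 to 11 with a list left out. Regions in all lists fell from 3 to 1 in the best-ranked 50% and without the peaks at the largest p-value, a setting chosen after seeing the data.

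The difference in Igk peaks, DN minus DP, 6.5 in the report, ranged from -6.5 to 19.5 with a list left out, and was 22.5 with lists limited to the shortest and 2.5 without the peaks at the largest p-value. The share of Igk peaks near a segment differed by -0.0656 percentage points, by 12.5 in the best-ranked 50%, by 8.61 with the shortest lists and by -3.31 to 3.18 with a list left out. The share in bins 1 and 2 turned to 2.68 in the best-ranked 50%. With the replicate number as a block, the differences were as without it (6.5 peaks, 5.14 per 10000, 1 segment, -0.0656 percentage points and 3.01 rank percentiles), and exact sign-flip tests over 2 pairs cannot go below p = 0.5. The cause of these changes was not tested.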

Other observations

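Of 30 annotated genes inside the interval that are not kappa segments, 5 had a peak within 500 bp in any list. Gm46961, a lncRNA between the V and J segments, had one in all 4 lists. The transcribed pseudogene 4930515G16Rik had one in DN 1, DN 2 and DP 2. The DP 1 peak of the same shared region started at 67566201, just outside the 500 bp window from the gene's end at 67565699. The remaining 3 were each held by 1 list. Gm24911, a snoRNA gene, lay under a peak of DP 2 (chr6:67804051-67804600, percentile 74.2) that tied for second place among its kappa peaks with the one nearest to Igkv3-1. Rprl1, annotated as an RNase P RNA, had a peak in DN 2, and the pseudogene Gm25910 in DN 1.

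The 100 kb before the locus held 4 peaks in DN 1, 0 in DN 2, 4 in DP 1 and 6 in DP 2. The 100 kb past Igkc held 4, 3, 12 and 10.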
